A study of Mus musculus with 8 samples.

Results

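Glycolysis and the response to low oxygen were followed through 42 mouse genes, which comprise the oxygen-sensing machinery, the enzymes and transporters that carry glucose to lactate, and a group of genes induced by hypoxia. The set is a list of names, and every array probe whose accession maps to one of them was kept. Probes were found for 41 of the 42 genes, 64 probes in all, among the 13600 named genes that could be tested on the array. *Vhl*, the recognition subunit of the ubiquitin ligase that removes HIF-α proteins, was the member without a matched probe. The samples were hearts of mouse embryos at E18.5 (embryonic day), shortly before birth, on a C57BL/6 background, from dams kept on chow. The 4 WT hearts were compared with 4 SIRT1 KO hearts, in which the NAD-dependent deacetylase SIRT1 had been deleted in the germ line and therefore in every tissue of the embryo, so that an effect of the heart itself and one of the rest of the embryo or of its growth cannot be told apart. The embryos came from matings between heterozygous animals, hearts of both sexes were used, and no treatment was given. RNA of each heart was labelled with Cy3 and hybridized to a one-color Agilent whole mouse genome array.

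In cells with enough oxygen, prolyl hydroxylases of the EGLN family mark the HIF-α proteins for destruction, and in low oxygen the HIF-α proteins persist, pair with ARNT and switch on their targets from short DNA motifs that contain ACGTG or GCGTG. Among those targets are glucose transporters, most enzymes of glycolysis, lactate dehydrogenase A and the pyruvate dehydrogenase kinases, which together let a cell gain ATP from glucose without oxygen. The fetal heart works in low oxygen and relies on glucose and lactate, and it turns to fatty acids after birth. SIRT1 is known to deacetylate HIF-α proteins and other regulators of metabolism.

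Between 59.5% and 65.0% of the probes on an array were well above background, and no spot was saturated. All values below are log2 signals minus the 75th percentile of the same array, so that 0 is a probe at that percentile, with SE for standard error, and they compare hearts within a probe and not one gene with another. The 4 WT arrays lie on 1 slide and the 4 SIRT1 KO arrays on a second slide scanned on another day, so in all comparisons that follow genotype cannot be told apart from slide or day of scanning. On the brighter of the 2 *Sirt1* probes the hearts labelled SIRT1 KO were higher than WT, with a log2 fold change of 0.54 (SE 0.11, n = 4 and 4, limma adjusted p = 0.0323), and on the other probe it was -0.11 (SE 0.11, n = 4 and 4, limma adjusted p = 0.589). The call on the brighter probe was lost in 13 of 20 alternatives, among them the replicate block (limma adjusted p = 0.0644), the methods' analysis of variance, scaling on the median and 6 of the 8 fits with 1 heart left out, and over all alternatives the adjusted p ran from 0.00958 to 0.257. Where in the gene the deleted part lies relative to these probes was not analysed here, so neither probe checks the labels, and SIRT1 KO in the following stands for the hearts so labelled. All 14 cardiomyocyte markers examined were measured, and none passed the threshold in limma or in the methods' analysis of variance (3 at an unadjusted limma p under 0.05). Of the markers of other cells that were tested, *Hbb-y* and *Gata1* of 10 erythroid and *Tnni2* and *Myog* of 10 skeletal muscle markers were higher past the threshold in SIRT1 KO (5 and 5 of these lists at an unadjusted limma p under 0.05, and 1 and 0 past the threshold in the analysis of variance), while without regard to the test 6 erythroid markers were fitted above 0 and 4 below, and 7 and 3 of skeletal muscle. None of 10 macrophage, 9 endothelial, 8 fibroblast, 5 smooth muscle, 7 liver markers and 1 of thymus passed it (2, 1, 1, 1, 0 and 1 at an unadjusted limma p under 0.05), and no marker of lung was bright enough to test. Fitted above and below 0 were 6 and 4 macrophage, 1 and 8 endothelial, 4 and 4 fibroblast, 1 and 4 smooth muscle, 7 and 0 liver and 0 and 1 thymus markers. The summed log2 level of the 7 liver markers ran from 3.49 to 4.83 in WT and from 3.73 to 6.97 in SIRT1 KO, highest in SIRT1 KO hearts 1 and 4. In whole hearts, fewer cells of a type and less RNA per cell cannot be told apart.

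None of the 41 measured members passed the threshold of an adjusted p of 0.05 on its brightest probe, where 4.62% of the 13600 genes tested did. None of the 59 member probes that were tested passed it either, against 4.91% of all 25624 probes, and the smallest adjusted p among them was 0.0801 (limma). At an unadjusted p under 0.05, 7 of the 41 members were counted by limma, which is 17.1% of them, beside 20.4% of all genes, and the methods' analysis of variance also counted 7. After adjustment that analysis kept 1, *Pdk1*. The values of the 2 genotypes did not overlap for 6 members (14.6%), and 14.0% of all genes showed no overlap. Both shares of members lie near the background, so neither is a result about the members. Of the 6, *Hk1*, *Gpi1*, *Pfkfb2* and *Aldoc* lay higher in every SIRT1 KO heart than in any WT heart, and *Egln3* and *Pdk1* lay lower in every one.

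The fitted changes of the members were small. They ran from a log2 fold change of -0.29 for *Slc16a3* to 0.28 for *Aldoc*, 17 of them above 0 and 24 below, with a median of -0.042 beside -0.0068 over all genes tested. The median size of the change, without its sign, was 0.077 for the members and 0.12 for all genes. The 95% interval lay within 1.5-fold in either direction for 38 of the 41 members and within 2-fold for all 41, the outermost bounds being -0.64 and 0.51 on the log2 scale. These intervals are of the brightest probes at the reported scaling, and they do not show that a level was the same in both genotypes.

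These values depend on the scaling between arrays. Scaling on the median in place of the 75th percentile moved the median change of all probes from 0.0082 to -0.12 and that of the members to -0.17, and with no scaling the medians were -0.21 and -0.26. These 3 settings differ by a constant per array, so the distance of the members from the median of all probes stays at -0.050. It sets the brightest probes of the members against all tested probes, dimmer ones included. This distance was 0.0045 after quantile normalization, -0.0050 after cyclic loess and from -0.078 to 7.8e-05 with 1 heart left out. It was farther from 0, at -0.10 and -0.14, after normexp on the median signal and without the filter on dim probes. Without that filter the median of all probes was 0.094, while that of the members stayed at -0.042. The share of calls over all probes that were higher in SIRT1 KO was 81.2% as reported, 63.9% after quantile normalization, 70.4% after cyclic loess, 38.3% after scaling on the median and 10.1% with none. With no scaling 8 members passed the threshold, all of them lower in SIRT1 KO (*Egln2*, *Egln3*, *Gapdh*, *Pgk1*, *Eno1*, *Slc16a3*, *Pdk1* and *P4ha1*), which is the direction in which that setting shifts the whole array, and after scaling on the median *Pdk1* alone passed.

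**Figure D1:**
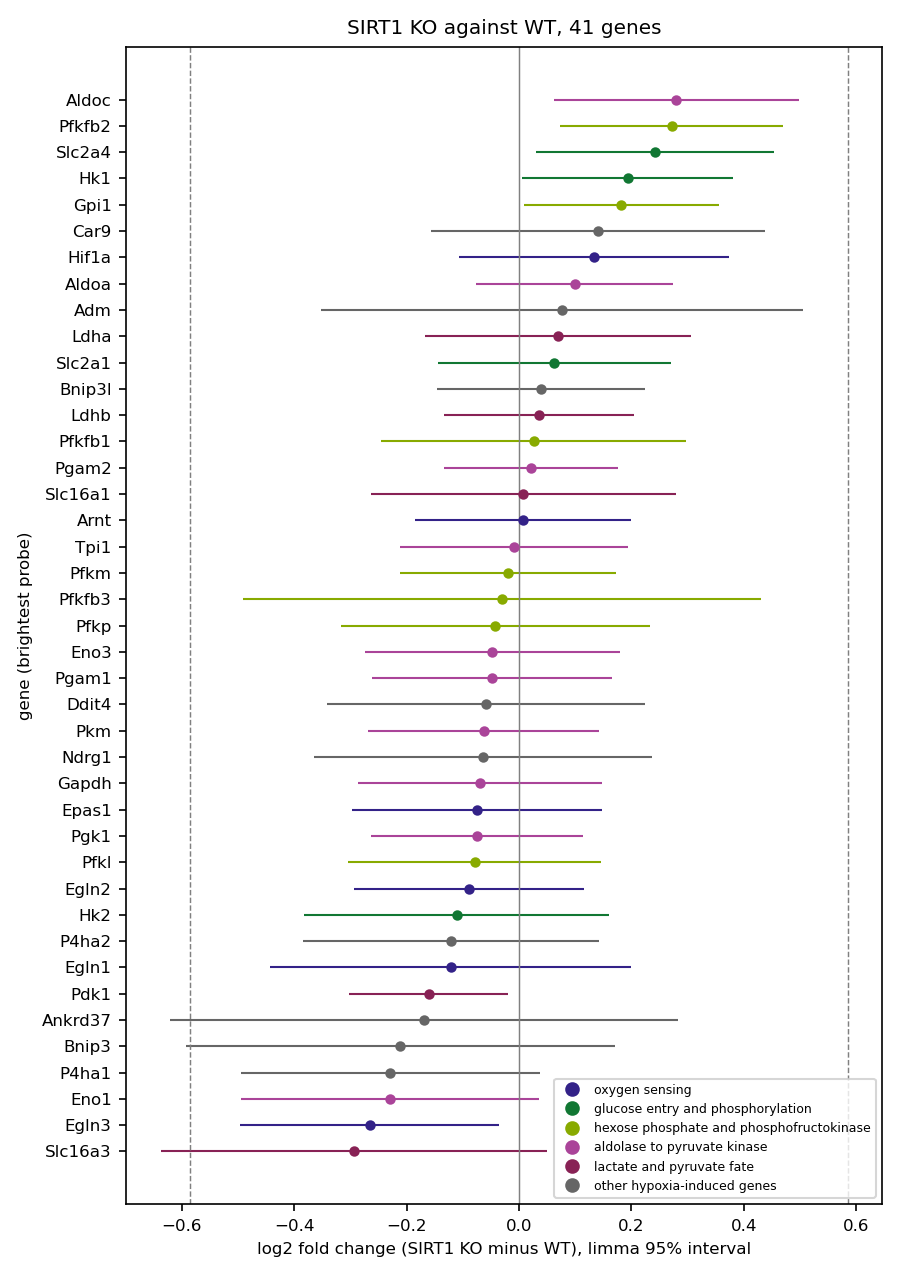
Log2 fold change (SIRT1 KO minus WT) of the brightest probe of each of the 41 measured genes, ordered by size and colored by role; points are limma estimates from 4 hearts per genotype, bars their 95% intervals, and dashed lines mark 1.5-fold. The intervals of 38 genes lie between the dashed lines and none of the genes passed an adjusted p of 0.05.

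**Figure D2:**
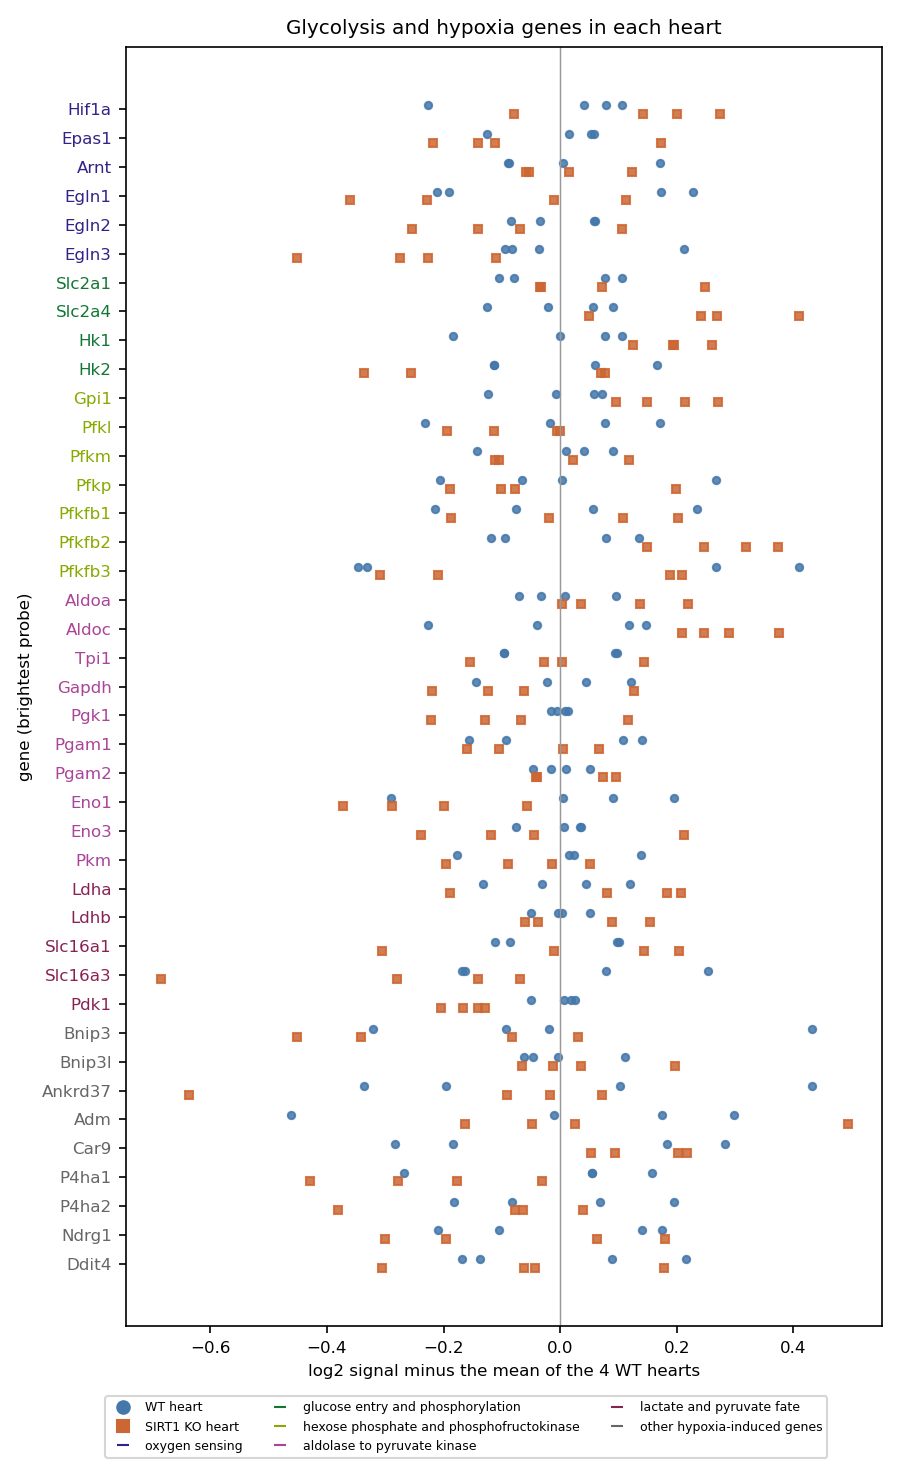
Log2 signal of each gene in each heart (WT, circles; SIRT1 KO, squares) minus the mean of the 4 WT hearts, with gene names colored by role. The circles and squares are apart for *Egln3*, *Hk1*, *Gpi1*, *Pfkfb2*, *Aldoc* and *Pdk1* and overlap for the other genes.

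The promoters of 6 members are shown, chosen for the following reasons. *Egln3* and *Pdk1* lay lower in every SIRT1 KO heart. *Pfkfb3*, *Ankrd37* and *Bnip3* were among the members that differed most from heart to heart, and *Ldha* held the most ACGTG motifs. Each line gives the 250 bases before the transcription start from RefSeq on GRCm38.p6, 5′ to 3′ on the strand of the gene, with ACGTG on either strand in capitals; CACGTG reads as ACGTG on both strands and was counted once. The *Egln3* stretch is chr12:54203875-54204124 on the minus strand. The *Pdk1* stretch is chr2:71872974-71873223 on the plus strand. The *Pfkfb3* stretch is chr2:11502091-11502340 on the minus strand. The *Ankrd37* stretch is chr8:45999851-46000100 on the minus strand. The *Bnip3* stretch is chr7:138909507-138909756 on the minus strand. The *Ldha* stretch is chr7:46845554-46845803 on the plus strand.

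Egln3: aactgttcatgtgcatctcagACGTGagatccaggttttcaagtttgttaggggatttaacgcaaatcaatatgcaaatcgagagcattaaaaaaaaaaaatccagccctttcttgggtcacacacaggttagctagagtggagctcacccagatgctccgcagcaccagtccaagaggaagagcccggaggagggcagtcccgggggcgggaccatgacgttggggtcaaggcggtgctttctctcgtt
Pdk1: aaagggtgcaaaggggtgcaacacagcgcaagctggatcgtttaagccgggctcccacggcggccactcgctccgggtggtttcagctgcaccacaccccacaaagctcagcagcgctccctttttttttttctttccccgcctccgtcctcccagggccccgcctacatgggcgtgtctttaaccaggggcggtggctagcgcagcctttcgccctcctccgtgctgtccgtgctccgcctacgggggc
Pfkfb3: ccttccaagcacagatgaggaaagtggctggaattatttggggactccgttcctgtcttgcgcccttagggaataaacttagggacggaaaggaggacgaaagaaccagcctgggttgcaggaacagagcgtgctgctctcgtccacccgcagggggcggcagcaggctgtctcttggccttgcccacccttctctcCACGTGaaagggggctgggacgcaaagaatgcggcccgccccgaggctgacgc
Ankrd37: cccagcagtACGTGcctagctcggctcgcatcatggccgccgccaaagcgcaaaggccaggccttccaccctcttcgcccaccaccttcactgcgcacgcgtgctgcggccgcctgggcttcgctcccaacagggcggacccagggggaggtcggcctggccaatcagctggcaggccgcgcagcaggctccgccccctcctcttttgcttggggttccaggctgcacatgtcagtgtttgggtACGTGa
Bnip3: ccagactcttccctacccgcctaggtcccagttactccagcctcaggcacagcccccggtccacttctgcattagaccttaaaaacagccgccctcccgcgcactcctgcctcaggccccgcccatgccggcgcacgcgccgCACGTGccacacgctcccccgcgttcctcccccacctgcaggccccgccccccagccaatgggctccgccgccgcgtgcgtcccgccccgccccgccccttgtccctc
Ldha: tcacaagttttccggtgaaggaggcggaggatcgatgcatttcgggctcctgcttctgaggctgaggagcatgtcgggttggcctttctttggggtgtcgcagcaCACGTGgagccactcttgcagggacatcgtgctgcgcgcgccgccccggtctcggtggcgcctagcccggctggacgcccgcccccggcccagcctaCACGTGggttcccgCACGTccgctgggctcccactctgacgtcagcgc

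The *Ldha* stretch holds 3 such sites, *Ankrd37* 2, and *Bnip3*, *Pfkfb3* and *Egln3* 1 each, while that of *Pdk1* holds 0. The related letters GCGTG, also searched on both strands, occur 3 times in the *Bnip3* stretch, 2 times in that of *Ankrd37* and 1 time each in those of *Pdk1* and *Pfkfb3*, and an ACGTG and a GCGTG on the same strand can share a G. RefSeq lists 2 starts each for *Pdk1*, *Pfkfb3* and *Ldha*, of which 1 is shown. The unshown stretches hold 0 ACGTG and 0 GCGTG for *Pdk1*, 1 and 0 for *Pfkfb3*, and 0 and 1 for *Ldha*. RefSeq listed 57 start sites for 38 of the 42 members, and ACGTG stood in 45.6% of their stretches, against 16.6% of the 32851 stretches of all genes. For GCGTG the shares were 56.1% and 28.2%. Stretches of 1 gene can overlap. Counted by gene, 57.9% of the 38 members had ACGTG upstream of a start, against 24.5% of 10829 tested genes with a listed promoter. The members were listed for glycolysis and the response to hypoxia, so higher shares can come from that choice and are not a result about the members. The 22 measured members with ACGTG upstream of at least 1 start had a median log2 fold change of -0.060 and the 15 without it 0.0067. The matches describe letters only, and binding of a factor to them was not measured.

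Oxygen sensing was represented by 6 measured genes, 2 fitted above 0 and 4 below. *Hif1a* encodes the broadly expressed HIF-α protein. *Hif1a* had log2 signals of 2.38, 2.05, 2.35 and 2.31 in WT hearts 1 to 4 and 2.55, 2.41, 2.47 and 2.19 in SIRT1 KO hearts 1 to 4. SIRT1 KO hearts 1 to 3 lay above all WT hearts and SIRT1 KO heart 4 lay within their range, and the log2 fold change was 0.13 (SE 0.11, n = 4 and 4, limma adjusted p = 0.501), a sign that turned with no scaling. *Epas1*, which encodes HIF-2α, and *Arnt*, the shared partner, gave log2 fold changes of -0.075 and 0.0067. Of the prolyl hydroxylases, *Egln1*, the main sensor in most tissues, gave -0.12 and *Egln2* -0.090. *Egln3*, the prolyl hydroxylase that is itself strongly induced by HIF, was the member of the group with the largest fitted change. Its log2 signal was 2.46, 2.16, 2.15 and 2.21 in WT hearts 1 to 4 and 2.02, 1.80, 1.97 and 2.14 in SIRT1 KO hearts 1 to 4. Every SIRT1 KO heart lay below every WT heart, the nearest pair being SIRT1 KO heart 4 and WT heart 3, and the log2 fold change was -0.27 (SE 0.10, n = 4 and 4, limma adjusted p = 0.176). With 1 heart left out it ran from -0.32 to -0.19.

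Glucose enters cardiac cells through GLUT1, the fetal carrier encoded by *Slc2a1*, and GLUT4, the insulin-responsive carrier encoded by *Slc2a4*, and hexokinases trap it as glucose 6-phosphate. *Slc2a1* had log2 signals of 4.03, 4.06, 3.87 and 3.85 in WT hearts 1 to 4 and 4.20, 4.02, 3.92 and 3.92 in SIRT1 KO hearts 1 to 4. The genotypes overlapped and the log2 fold change was 0.063 (SE 0.092, n = 4 and 4, limma adjusted p = 0.729), which turned below 0 after scaling on the median and with none. *Slc2a4* had log2 signals of 4.19, 3.98, 4.16 and 4.08 in WT hearts 1 to 4 and 4.51, 4.35, 4.37 and 4.15 in SIRT1 KO hearts 1 to 4. SIRT1 KO hearts 1 to 3 exceeded all WT hearts, SIRT1 KO heart 4 lay between WT hearts 3 and 4, and the log2 fold change was 0.24 (SE 0.093, n = 4 and 4, limma adjusted p = 0.179). *Hk1* encodes the hexokinase found in most tissues and *Hk2* the one induced by insulin and hypoxia. *Hk1* had log2 signals of 5.81, 5.52, 5.70 and 5.78 in WT hearts 1 to 4 and 5.90, 5.96, 5.90 and 5.83 in SIRT1 KO hearts 1 to 4. The brightest *Hk1* probe did not overlap between genotypes, with a log2 fold change of 0.19 (SE 0.083, n = 4 and 4, limma adjusted p = 0.219), which turned below 0 with no scaling. The other 4 tested *Hk1* probes all overlapped and ran from -0.064 to 0.099, so the probes of this gene disagree in sign. *Hk2* had log2 signals of 4.23, 3.95, 3.95 and 4.12 in WT hearts 1 to 4 and 4.13, 3.80, 3.72 and 4.14 in SIRT1 KO hearts 1 to 4. Hearts 1 and 4 of SIRT1 KO lay within the WT range and hearts 2 and 3 lay below it, with a log2 fold change of -0.11 (SE 0.12, n = 4 and 4, limma adjusted p = 0.630).

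The next steps convert glucose 6-phosphate to fructose 1,6-bisphosphate, and the bifunctional PFKFB enzymes set the level of the activator of phosphofructokinase. *Gpi1* encodes glucose 6-phosphate isomerase. *Gpi1* had log2 signals of 7.49, 7.30, 7.42 and 7.50 in WT hearts 1 to 4 and 7.64, 7.58, 7.70 and 7.52 in SIRT1 KO hearts 1 to 4. All 4 SIRT1 KO hearts were above all 4 WT hearts, and the log2 fold change was 0.18 (SE 0.076, n = 4 and 4, limma adjusted p = 0.209), but -0.037 with no scaling. The phosphofructokinase subunits of liver (*Pfkl*), muscle (*Pfkm*) and platelet (*Pfkp*) type gave log2 fold changes of -0.079, -0.020 and -0.042, each with overlapping genotypes. *Pfkfb2*, the heart isoform of the bifunctional enzyme, had the smallest p of all members. *Pfkfb2* had log2 signals of -0.28, -0.54, -0.34 and -0.51 in WT hearts 1 to 4 and -0.10, -0.17, -0.27 and -0.045 in SIRT1 KO hearts 1 to 4. No SIRT1 KO heart lay in the WT range, and the log2 fold change was 0.27 (SE 0.088, n = 4 and 4, limma adjusted p = 0.122), from 0.23 to 0.32 with 1 heart left out but 0.14 after scaling on the median and 0.052 with none. Its other tested probes gave log2 fold changes of 0.36 (SE 0.099, n = 4 and 4, limma adjusted p = 0.0801) and 0.58 (SE 0.28, n = 4 and 4, limma adjusted p = 0.268), both above 0, and another probe was too dim to test. The first of these passed the threshold with array weights, with SIRT1 KO heart 3 left out and after normexp on the median signal. *Pfkfb1*, the liver and muscle isoform, gave 0.026 and *Pfkfb3*, the hypoxia-induced isoform with the strongest kinase activity, -0.031.

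The 10 measured genes from aldolase to pyruvate kinase carry fructose 1,6-bisphosphate to pyruvate, and 3 of them were fitted above 0 and 7 below. *Aldoc* encodes the aldolase best known from brain. *Aldoc* had log2 signals of 1.88, 1.5, 1.85 and 1.69 in WT hearts 1 to 4 and 1.98, 2.02, 2.11 and 1.94 in SIRT1 KO hearts 1 to 4. Here too all SIRT1 KO hearts lay above all WT hearts, with WT heart 1 the nearest, and the log2 fold change was 0.28 (SE 0.097, n = 4 and 4, limma adjusted p = 0.141). For *Aldoa*, the aldolase of muscle, the log2 signal was 8.99, 8.82, 8.86 and 8.90 in the WT hearts and 9.03, 8.90, 9.11 and 8.93 in the SIRT1 KO hearts in the same order. These overlapped, with a log2 fold change of 0.099 (SE 0.077, n = 4 and 4, limma adjusted p = 0.493) that turned below 0 after scaling on the median and with none. *Eno1* encodes the enolase of most fetal tissues. *Eno1* had log2 signals of 2.23, 1.74, 2.12 and 2.04 in WT hearts 1 to 4 and 1.83, 1.66, 1.97 and 1.74 in SIRT1 KO hearts 1 to 4. WT heart 2 lay among the SIRT1 KO hearts and the other WT hearts above them, and the log2 fold change was -0.23 (SE 0.12, n = 4 and 4, limma adjusted p = 0.297). *Pgk1*, the phosphoglycerate kinase that forms the first ATP of the pathway, gave a log2 fold change of -0.075 (SE 0.083, n = 4 and 4, limma adjusted p = 0.640) on its brighter probe with overlapping genotypes. On its dimmer probe the log2 signal was 6.65, 6.58, 6.69 and 6.73 in WT hearts 1 to 4 and 6.28, 6.29, 6.56 and 6.39 in SIRT1 KO hearts 1 to 4. There no SIRT1 KO heart reached the WT range and the log2 fold change was -0.28 (SE 0.083, n = 4 and 4, limma adjusted p = 0.0930), past the threshold after scaling on the median, with none, with array weights, after normexp on the median signal and without SIRT1 KO heart 3. The rest were *Tpi1* at -0.0089, *Gapdh* at -0.070, *Pgam1* at -0.048, *Pgam2*, the muscle mutase, at 0.022, *Eno3*, the muscle enolase, at -0.048 and *Pkm* at -0.062, all log2 fold changes between overlapping genotypes. Several of these genes have near-identical processed copies in the mouse genome, and whether a probe also binds transcripts of those was not tested.

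Pyruvate is reduced to lactate by lactate dehydrogenase, carried across the membrane by monocarboxylate transporters, or oxidized in mitochondria by pyruvate dehydrogenase. Pyruvate dehydrogenase kinases restrain that enzyme. *Ldha* had log2 signals of 7.41, 7.33, 7.49 and 7.23 in WT hearts 1 to 4 and 7.55, 7.45, 7.57 and 7.18 in SIRT1 KO hearts 1 to 4. These ranges overlapped for *Ldha*, the subunit that favors lactate formation, and the log2 fold change was 0.070 (SE 0.10, n = 4 and 4, limma adjusted p = 0.737), below 0 after scaling on the median, with none, and on its other probe (-0.099). *Ldhb*, the subunit of oxidative muscle, had log2 signals of 7.72, 7.61, 7.67 and 7.66 in the WT hearts and 7.82, 7.63, 7.75 and 7.60 in the SIRT1 KO hearts. Its log2 fold change was 0.036 (SE 0.075, n = 4 and 4, limma adjusted p = 0.818), and the sign turned after quantile normalization, scaling on the median and with none. *Slc16a1*, the carrier MCT1, gave 0.0078. *Slc16a3* had log2 signals of 5.11, 4.69, 4.69 and 4.93 in WT hearts 1 to 4 and 4.79, 4.57, 4.71 and 4.17 in SIRT1 KO hearts 1 to 4. *Slc16a3* encodes MCT4, the hypoxia-induced exporter of lactate, and SIRT1 KO heart 4 was its lowest value, 4.17, while SIRT1 KO hearts 1 and 3 lay within the WT range. The log2 fold change was -0.29 (SE 0.15, n = 4 and 4, limma adjusted p = 0.303), and -0.16 without SIRT1 KO heart 4.

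*Pdk1* encodes a hypoxia-induced pyruvate dehydrogenase kinase and had the smallest SD of all members when pooled over the genotypes. *Pdk1* had log2 signals of 4.49, 4.42, 4.50 and 4.48 in WT hearts 1 to 4 and 4.34, 4.30, 4.33 and 4.26 in SIRT1 KO hearts 1 to 4. Every SIRT1 KO heart lay below every WT heart, and the log2 fold change was -0.16 (SE 0.063, n = 4 and 4, limma adjusted p = 0.183), from -0.18 to -0.15 with 1 heart left out. This is a fold change of 0.895, the SD being 0.034 in WT and 0.033 in SIRT1 KO. The methods' analysis of variance, which uses the spread of this probe alone, gave an adjusted p of 0.0375 for it where limma, which also draws on the spread of all probes, gave 0.183, and over all alternatives it ran from 0.0194 to 0.915. On the second, dimmer *Pdk1* probe the log2 signal was 2.13, 1.66, 1.91 and 1.95 in WT hearts 1 to 4 and 1.99, 2.50, 1.85 and 1.76 in SIRT1 KO hearts 1 to 4. That probe overlapped, with SIRT1 KO heart 2 the highest, and gave 0.11 (SE 0.17, n = 4 and 4, limma adjusted p = 0.733), so the 2 probes of *Pdk1* disagree in sign.

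The 9 other hypoxia-induced genes were 3 above 0 and 6 below, with a median log2 fold change of -0.064, and all of them overlapped between genotypes. *P4ha1*, a collagen prolyl hydroxylase subunit, had the smallest p of the group. *P4ha1* had log2 signals of 1.17, 1.17, 0.84 and 1.27 in WT hearts 1 to 4 and 0.83, 0.93, 0.68 and 1.08 in SIRT1 KO hearts 1 to 4. WT heart 3 lay among the SIRT1 KO hearts and SIRT1 KO heart 4 was the highest of its genotype, with a log2 fold change of -0.23 (SE 0.12, n = 4 and 4, limma adjusted p = 0.300), and its relative *P4ha2* gave -0.12. The mitophagy genes *Bnip3* and *Bnip3l* gave log2 fold changes of -0.21 and 0.039. *Ankrd37*, a small ankyrin repeat gene and HIF target, gave -0.17, and *Adm*, the vasodilator peptide adrenomedullin, 0.077. *Car9*, the membrane carbonic anhydrase that is a common marker of hypoxic tissue, gave 0.14, *Ndrg1* -0.064 and *Ddit4*, an inhibitor of mTORC1, -0.058. *Vegfa*, the vascular growth factor, is not a member but is a standard target of the same pathway. *Vegfa* had log2 signals of 4.13, 3.28, 3.52 and 3.89 in WT hearts 1 to 4 and 4.09, 3.54, 3.56 and 3.96 in SIRT1 KO hearts 1 to 4. The ranges of the 2 genotypes nearly coincided and the log2 fold change was 0.085 (SE 0.20, n = 4 and 4, limma adjusted p = 0.845), with a sign that turned after scaling on the median and with none.

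Of the 13 members with several tested probes, 6 had probes that disagreed in sign (*Hk1*, *Gapdh*, *Ldha*, *Slc16a1*, *Pdk1* and *Bnip3l*). For *Gapdh* the 2 probes gave log2 fold changes of -0.070 and 0.096, for *Bnip3l* -0.093 and 0.039, and the 3 probes of *Slc16a1* ran from -0.024 to 0.085. The other 7 agreed in sign, namely *Arnt*, *Egln1*, *Pfkp*, *Pfkfb2*, *Aldoa*, *Pgk1* and *P4ha1*. The 5 member probes left out of the test belonged to *Epas1*, *Hk1*, *Pfkfb2* and *Pfkfb3*, and each of these genes kept at least 1 probe.

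Fetal and adult or ubiquitous and muscle isoforms can be set against each other within an array, and such a log2 difference does not depend on scaling by a constant. For 11 pairs of members it was compared between genotypes, only as a change and not as a ratio of amounts, since probes bind with different strength. The genotypes overlapped in all 11, and 4 hearts against 4 allow no exact two-sided p below 0.0286. The test was unpaired and did not use the replicate numbers of the hearts. The log2 difference of *Hk2* and *Hk1* was -1.58, -1.57, -1.76 and -1.66 in WT hearts 1 to 4 and -1.77, -2.16, -2.17 and -1.69 in SIRT1 KO hearts 1 to 4. SIRT1 KO hearts 2 and 3 stood lowest and SIRT1 KO heart 4 within the WT range, and the genotypes differed by -0.30 (SE 0.13, n = 4 and 4, exact two-sided permutation p = 0.0571, 0.157 after adjustment over the 11 pairs). That of *Slc2a4*, the insulin-responsive carrier, and *Slc2a1*, the fetal one, was 0.17, -0.080, 0.29 and 0.24 in WT hearts 1 to 4 and 0.31, 0.32, 0.45 and 0.24 in SIRT1 KO hearts 1 to 4. WT heart 2 was lowest, and the difference between genotypes was 0.18 (SE 0.093, n = 4 and 4, exact two-sided permutation p = 0.0571, 0.157 after adjustment over the 11 pairs). For the lactate carriers *Slc16a3* and *Slc16a1* it was -0.38, -0.79, -0.61 and -0.34 in WT hearts 1 to 4 and -0.80, -0.95, -0.66 and -0.91 in SIRT1 KO hearts 1 to 4. WT heart 2 lay within the SIRT1 KO range, and the difference was -0.30 (SE 0.12, n = 4 and 4, exact two-sided permutation p = 0.0571, 0.157 after adjustment over the 11 pairs). The pair *Aldoc* and *Aldoa* gave 0.18 (SE 0.076, n = 4 and 4, exact two-sided permutation p = 0.0571, 0.157 after adjustment over the 11 pairs). For *Ldha* and *Ldhb*, whose ratio shifts between tissues that make and tissues that use lactate, the difference was 0.034 (SE 0.077, n = 4 and 4, exact two-sided permutation p = 0.514, 0.514 after adjustment over the 11 pairs). The remaining 6 pairs, among them *Hif1a* with *Epas1* at 0.21 and *Pgam2* with *Pgam1* at 0.070, had exact permutation p-values from 0.143 to 0.400 before adjustment.

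**Figure D3:**
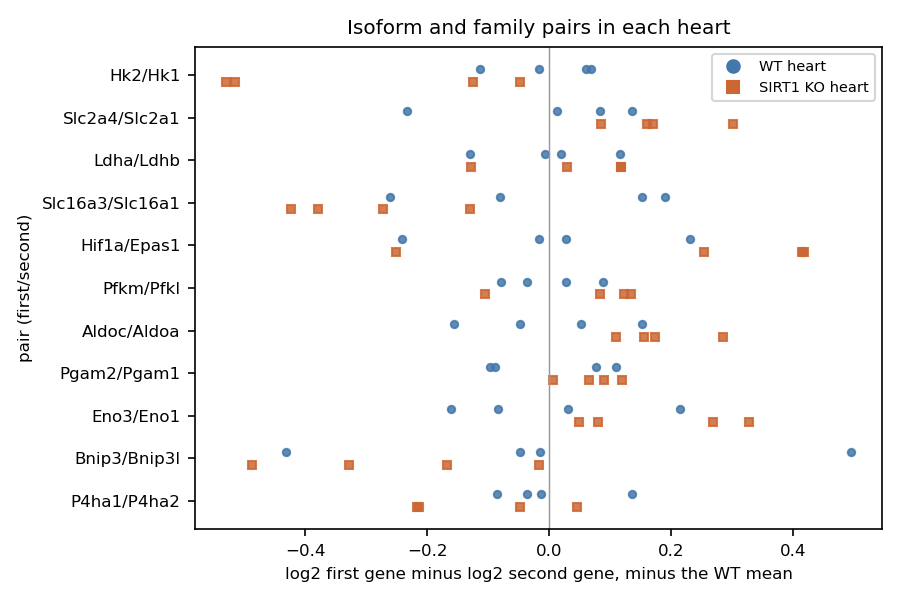
Log2 signal of the first gene minus that of the second within each array, for 11 pairs, with the mean of the 4 WT hearts subtracted (WT, circles; SIRT1 KO, squares). The genotypes overlap in every pair, and the smallest exact permutation p is 0.0571.

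Several members differed more from heart to heart than between genotypes. The median SD within a genotype was 0.14 log2 units for the members and 0.14 for all genes, and the largest among the members was 0.34 for *Pfkfb3*, above that of 92.1% of all genes. *Pfkfb3* had log2 signals of 1.83, 1.07, 1.09 and 1.69 in WT hearts 1 to 4 and 1.63, 1.11, 1.21 and 1.61 in SIRT1 KO hearts 1 to 4. Hearts 1 and 4 of each genotype were the higher ones and hearts 2 and 3 the lower ones. *Bhlhe40*, a transcription factor induced by hypoxia and by the circadian clock and no member of the set, had log2 signals of 2.12, 0.92, 1.01 and 1.74 in WT and 1.97, 0.79, 1.32 and 1.82 in SIRT1 KO hearts, with the same 2 hearts high in each genotype, as were those of *Vegfa* given above. *Ankrd37* had 2.35, 1.58, 1.72 and 2.02 in WT and 1.82, 1.28, 1.90 and 1.99 in SIRT1 KO hearts, with WT heart 1 highest and SIRT1 KO heart 2 lowest (SD 0.33). For *Bnip3* the log2 signals were 4.66, 3.91, 4.21 and 4.13 in WT and 4.26, 3.89, 4.14 and 3.77 in SIRT1 KO hearts, where heart 4 was the lowest of its genotype, unlike in *Pfkfb3* (SD 0.27). *Adm* had 0.59, 0.28, -0.17 and 0.46 in WT and 0.32, 0.13, 0.24 and 0.78 in SIRT1 KO hearts, highest in SIRT1 KO heart 4 and lowest in WT heart 3 (SD 0.31).

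Across the members the hearts also differed in rank. WT heart 1 was the highest of the 4 WT hearts for 22 of the 41 members and WT heart 2 the lowest for 24, while among the SIRT1 KO hearts, heart 1 was highest for 15 and heart 4 lowest for 18. The median deviation of the members from the mean of their genotype was 0.10 in WT heart 1 and -0.11 in WT heart 2, where that of all genes was 0.0085 and -0.0063. In SIRT1 KO hearts 1 and 4 that of the members was 0.048 and -0.053, and that of all genes 0.0029 and -0.032. With WT heart 1 left out the median change of the members was 0.00081, and 0.0068 with SIRT1 KO heart 2 left out, in place of -0.042. The summed log2 level of the 7 liver markers was 4.29, 3.98, 3.49 and 4.83 in WT hearts 1 to 4 and 6.97, 4.25, 3.73 and 6.02 in SIRT1 KO hearts 1 to 4, so within each genotype hearts 1 and 4 were the higher ones here as well as for *Pfkfb3*, *Vegfa* and *Bhlhe40*. All 7 of these markers were fitted higher in SIRT1 KO, none of them past the threshold, and their part in the spread of those genes was not tested. Without SIRT1 KO hearts 1 and 4, a choice made after seeing the data, again none of the members passed the threshold, with 4 at an unadjusted limma p under 0.05 (9.76%, beside 14.9% of all genes in that fit).

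**Figure D4:**
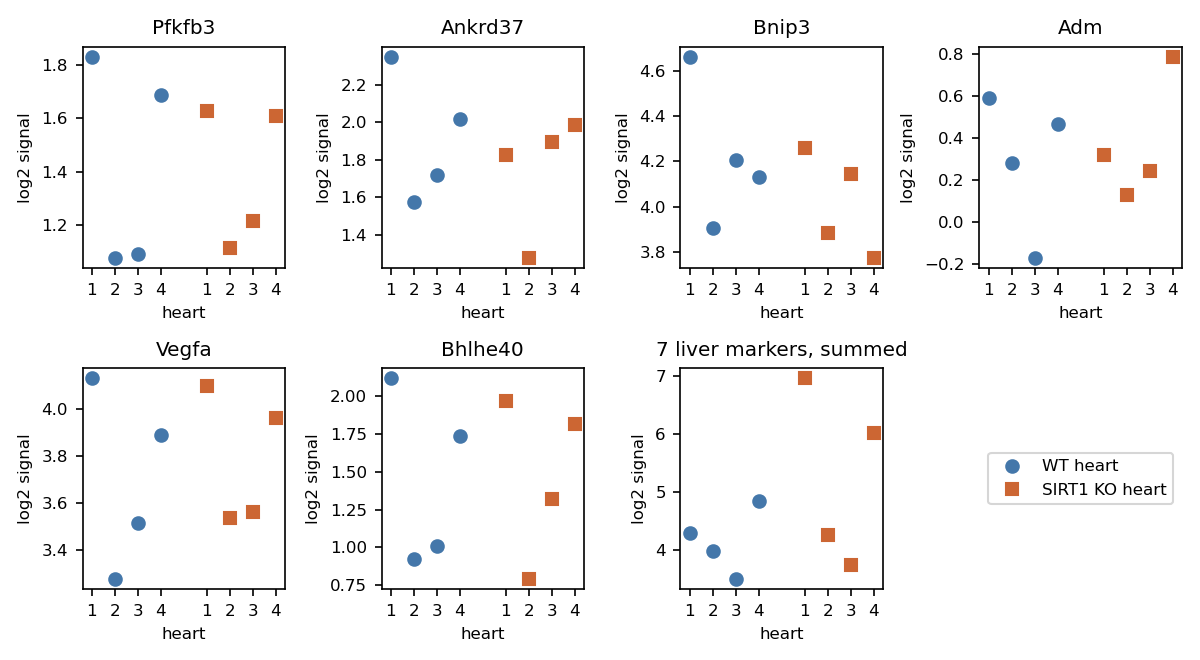
Log2 signal, relative to the 75th percentile of the array, in each of the 4 WT (circles) and 4 SIRT1 KO (squares) hearts for 4 members, for *Vegfa* and *Bhlhe40*, and for the summed level of 7 liver markers; each panel has its own vertical scale. In *Pfkfb3*, *Vegfa*, *Bhlhe40* and the liver markers hearts 1 and 4 are the higher 2 of each genotype.

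Outside the members, 83 further genes of the same pathways were examined, of which 71 were tested and 4 passed the threshold (5.63%, beside 4.62% of all genes), 2 higher and 2 lower in SIRT1 KO. By list, 3 of 7 genes of lower glycolysis and 1 of 14 of pyruvate and lactate handling passed, and none of 6 of oxygen sensing, 16 of glucose and glycogen handling or 28 hypoxia-induced genes did, 19 of the 71 having an unadjusted limma p under 0.05 (26.8%, beside 20.4% of all genes). *Slc16a7* encodes MCT2, a carrier with high affinity for pyruvate and lactate. *Slc16a7* had log2 signals of -0.73, -0.66, -0.94 and -0.76 in WT hearts 1 to 4 and -1.49, -1.30, -1.21 and -1.45 in SIRT1 KO hearts 1 to 4. Every SIRT1 KO heart was below every WT heart, and *Slc16a7* fell, with a log2 fold change of -0.59 (SE 0.094, n = 4 and 4, limma adjusted p = 0.00926), a fold change of 0.665. It stayed past the threshold under all alternatives except without SIRT1 KO hearts 1 and 4, where the adjusted p from limma was 0.0737 (range over the alternatives 0.00613 to 0.0737). *Eno2* encodes the enolase best known from neurons. *Eno2* had log2 signals of -3.36, -3.68, -3.77 and -3.65 in WT hearts 1 to 4 and -2.66, -2.97, -3.06 and -3.04 in SIRT1 KO hearts 1 to 4. The genotypes did not overlap and *Eno2* rose, with a log2 fold change of 0.68 (SE 0.12, n = 4 and 4, limma adjusted p = 0.0152), and its second probe gave 0.56 (SE 0.12, n = 4 and 4, limma adjusted p = 0.0322). The adjusted p from limma was 0.0510 without WT heart 2 and 0.0505 without WT heart 3, and over all alternatives it ran from 0.00454 to 0.0676.

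*Bpgm* encodes the enzyme that makes 2,3-bisphosphoglycerate, abundant in red cells, from an intermediate of glycolysis. *Bpgm* had log2 signals of 1.52, 1.66, 1.79 and 1.68 in WT hearts 1 to 4 and 1.27, 1.27, 1.36 and 1.19 in SIRT1 KO hearts 1 to 4. No SIRT1 KO heart reached the WT range and *Bpgm* fell, with a log2 fold change of -0.38 (SE 0.080, n = 4 and 4, limma adjusted p = 0.0289), while its second probe overlapped and gave -0.17 (SE 0.12, n = 4 and 4, limma adjusted p = 0.437). With 1 heart left out, the adjusted p from limma for the first probe ran from 0.0295 to 0.0883, past the threshold only without WT heart 1 or SIRT1 KO heart 3, and over all alternatives from 0.0106 to 0.167. The summed log2 level of 10 tested erythroid markers was between 9.0 and 9.13 in WT and between 8.79 and 9.08 in SIRT1 KO hearts, with *Hbb-y* and *Gata1* past the threshold and higher in SIRT1 KO, 6 of the 10 fitted above 0 and 4 below, and the part of these markers in the *Bpgm* values was not tested. *Gapdhs* encodes the glyceraldehyde 3-phosphate dehydrogenase of sperm. *Gapdhs* had log2 signals of -5.84, -6.65, -6.22 and -6.27 in WT hearts 1 to 4 and -4.56, -4.83, -3.70 and -4.90 in SIRT1 KO hearts 1 to 4. It was well above background on all 8 arrays but dim, and *Gapdhs* rose with no overlap and a log2 fold change of 1.75 (SE 0.27, n = 4 and 4, limma adjusted p = 0.00804). After normexp on the median signal, which shrinks differences between dim spots, the log2 fold change was 0.64, still past the threshold. In the methods' analysis of variance *Gapdhs* and *Eno2* had adjusted p-values of 0.0584 and 0.0614. The other 67 pathway genes did not pass.

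**Figure D5:**
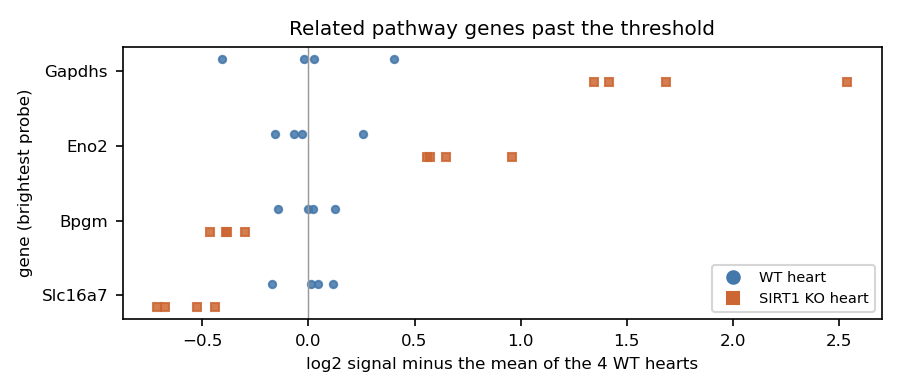
Log2 signal of the 4 related pathway genes past the threshold in each heart (WT, circles; SIRT1 KO, squares) minus the mean of the 4 WT hearts. *Gapdhs* and *Eno2* lie higher and *Bpgm* and *Slc16a7* lower in every SIRT1 KO heart than in any WT heart.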

How the data were processed

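Hearts of 4 WT and 4 SIRT1 KO embryos were measured on Agilent 4×44 mouse arrays, and the numbers of the hearts are those of the labels. The authors deposited, per array, the spot intensity after background subtraction and error modelling with the one-color defaults of Feature Extraction (the version is 12.0.0.7 per the file headers), without scaling between arrays. Whether the hearts of a group came from separate litters is not given in the sources used here, so p-values measure the spread between these samples. Here log2 intensities were taken from the deposited intensity, the 75th percentile of the non-control spots of each array was subtracted, outlier spots were dropped and the spots of a probe averaged. RefSeq accessions named 28223 of 41174 probes (68.5%), and a gene is represented by its brightest probe. Probes well above background on at least 4 arrays were tested with limma 3.58.1 in R 4.3.3, with Benjamini-Hochberg adjustment over all probes tested at 0.05. In data simulated for this comparison on 25544 probes, with 200 of them changed by 1 log2 unit, limma recovered 83.5%, and 4.57% of its calls were unchanged probes. That change is larger than any fitted for a member, and no difference between slides was simulated. The share recovered therefore does not apply to changes of the members' size. Isoform pairs were compared with exact two-sided permutation tests (Python 3.11.15, numpy 2.4.6, pandas 2.3.3, scipy 1.17.1), and plots were drawn with matplotlib 3.10.9. The methods' analysis of variance was run probe by probe with genotype as the factor. Per-heart values are given for the 12 members with the smallest p and for *Hif1a*, *Slc2a1*, *Slc2a4*, *Hk1*, *Hk2*, *Ldha*, *Ldhb*, *Pdk1*, *Vegfa* and *Egln3*, other pathway genes are named where they passed the threshold, and further ones, as well as *Pfkfb3*, *Ankrd37*, *Bnip3*, *Adm* and *Bhlhe40*, after their values were seen. The members and all gene lists were chosen with earlier results of these data known. Alternatives covered scaling, background correction, the filter, the test, array weights, a replicate block, the probe of a gene and each heart left out. Some values of single genes are not reported here. A slide block could not be fitted, since each slide holds 1 genotype.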

Additional observations from a re-analysis of the deposited data

How the results depend on the processing

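Counts below are of features past an adjusted p of 0.05, and the reported ones are 1257 of all probes, 0 members, 0 member probes and 4 other pathway genes. With no scaling they were 6351, 8, 11 and 22, and the median log2 fold change of the members was -0.26. Scaling on the median gave 1791, 1, 2 and 8 and a median of -0.17. The methods' analysis of variance gave 550, 1, 1 and 2, array weights 2291, 0, 2 and 9, and normexp on the median signal 2572, 0, 2 and 11, with 2 isoform pairs that did not overlap. Without SIRT1 KO hearts 1 and 4, 649 probes and 1 other pathway gene passed; this setting and normexp on the median signal were chosen after seeing the data, the latter because normexp on the mean signal was not run, that signal not being among the columns used here. With 1 heart left out the counts ran from 660 (without WT heart 3) to 1827 (without SIRT1 KO heart 3) over all probes, from 0 to 2 over member probes and from 2 to 6 over other pathway genes, the median of the members from -0.072 to 0.0068, and the isoform pairs without overlap from 0 to 3, while no member passed on its brightest probe. Over all probes the count was below the reported one by more than 1.5 times without WT heart 2 (663), WT heart 3, SIRT1 KO heart 1 (732) or SIRT1 KO heart 2 (728), for the other pathway genes it was lowest without WT heart 2 or 3, the 2 member probes passed without SIRT1 KO heart 3, and 3 isoform pairs had no overlap without WT heart 3 or SIRT1 KO heart 4. The log2 fold change turned below 0 for *Ldhb* (-0.010) after quantile normalization, for *Aldoa* (-0.029), *Slc2a1* (-0.065), *Ldha* (-0.058), *Ldhb* (-0.093) and *Vegfa* (-0.044) after scaling on the median, and for *Gpi1* (-0.037), *Hk1* (-0.026), *Aldoa* (-0.12), *Hif1a* (-0.086), *Slc2a1* (-0.16), *Ldha* (-0.15), *Ldhb* (-0.18) and *Vegfa* (-0.13) with none. It also turned for *Ldha* (-0.056) and *Ldhb* (-0.0029) after normexp, for *Ldha* (-0.014) and *Vegfa* (-0.081) on the mean of a gene's probes, for *Vegfa* without WT heart 2 (-0.057), without SIRT1 KO heart 1 (-0.017) and without SIRT1 KO hearts 1 and 4 (-0.15), and for *Ldhb* without SIRT1 KO heart 1 (-0.0033). Leaving 1 heart out moved *Slc2a1* between 0.0012 and 0.099 (lowest without SIRT1 KO heart 1), *Hk2* between -0.17 and -0.036 (nearest 0 without SIRT1 KO heart 3), *Ldha* between 0.025 (without SIRT1 KO heart 3) and 0.16 (without SIRT1 KO heart 4), *Hif1a* between 0.058 (without WT heart 2) and 0.21 (without SIRT1 KO heart 4), *Aldoa* between 0.059 (without SIRT1 KO heart 3) and 0.13, none of them past the threshold, *Vegfa* between -0.057 and 0.23 and *Ldhb* between -0.0033 and 0.068. The causes of these changes were not tested. *Pfkfb2*, *Aldoc*, *Slc2a4* and *Hk2* kept their sign and missed the threshold under all 20 alternatives, but their size moved with the scaling. Scaling on the median and no scaling gave 0.14 and 0.052 for *Pfkfb2*, 0.15 and 0.061 for *Aldoc*, 0.11 and 0.023 for *Slc2a4* and -0.24 and -0.33 for *Hk2*. The filter on dim probes, quantile normalization and cyclic loess left the members' counts at 0.

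The design text speaks of 4 pairs of hearts without saying what joins them, and hearts of the same number deviated together with correlations from 0.056 to 0.21, each heart correlating best with its own number, which is a hint from the data and not from the design. With the replicate number as a block 1187 probes, 0 members and 5 other pathway genes passed the threshold, the added one being *Slc2a12*. The number of arrays and, for dim probes such as that of *Gapdhs*, the signal over background limit the precision.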

Other observations

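*Fbp1* and *Trf*, which the liver expresses strongly, are pathway genes outside the set that varied widely between hearts, and they are given here after their values were seen. *Fbp1* had log2 signals of -1.34, -2.12, -2.41 and -0.54 in WT hearts 1 to 4 and 1.07, -1.57, -2.35 and 0.0089 in SIRT1 KO hearts 1 to 4. *Trf* had log2 signals of -0.60, -0.67, -0.87 and -0.10 in WT hearts 1 to 4 and 1.59, -0.31, -0.43 and 1.09 in SIRT1 KO hearts 1 to 4. Both were highest in SIRT1 KO hearts 1 and 4, as the summed liver markers were, and their log2 fold changes of 0.89 and 1.05 did not pass the threshold (limma adjusted p = 0.507 and 0.208). The part of liver RNA in these values was not tested.

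The genotypes did not overlap for 10 of the 71 pathway genes (14.1%, beside 14.0% of all genes), and 5 that missed the threshold are given here for that reason. *Pdhx* and *Pdha1*, both subunits of the pyruvate dehydrogenase complex, were lower in every SIRT1 KO heart, with log2 fold changes of -0.31 (limma adjusted p = 0.0579) and -0.28 (limma adjusted p = 0.0733), while the other subunit genes *Pdhb*, *Dlat* and *Dld* gave 0.00050, -0.015 and 0.047 with overlap. *Pdhx* and *Pdha1* passed the threshold in limma with array weights (adjusted p = 0.0215 and 0.0272), after scaling on the median (0.0290 and 0.0318), with none (0.0133 and 0.0120) and without SIRT1 KO heart 3 (0.0377 and 0.0322), and *Pdhx* also after normexp on the median signal (0.0292). *Gpd2*, the mitochondrial glycerol 3-phosphate dehydrogenase, and *Slc2a12*, the carrier GLUT12, were lower at -0.28 and -0.40 (limma adjusted p = 0.0929 and 0.0841), and *Slc2a12* passed the threshold with the replicate number as a block (limma adjusted p = 0.0427), with array weights (0.0344), after scaling on the median (0.0383) and with none (0.0150). *Gpd2* passed it in limma after scaling on the median (adjusted p = 0.0393), with none (0.0116), after normexp on the median signal (0.0328) and with array weights (0.0300). *Hk3*, the hexokinase of white blood cells, was higher at 0.60 (limma adjusted p = 0.0627), and passed the threshold after normexp on the median signal (0.0137), with probes well above background on all 8 arrays (0.0471) and with array weights (0.0480).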
